A study of Mus musculus with 9 samples.

Results

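The genes described here are 10 genes of the MHC class I antigen presentation pathway and the immunoproteasome. They were picked by symbol from the 54532 gene identifiers of a table of read counts, with earlier results of these data known. They are B2m, H2-K1, H2-D1, Tap1, Tap2, Tapbp, Psmb8, Psmb9, Psmb10 and Nlrc5, and each was found once. RNA from the hearts of male C57BL/6J mice, wild type and 8 to 10 weeks old, was sequenced in 3 groups of 3 libraries. Sham mice had the chest opened and a suture passed under the left anterior descending coronary artery without ligation, and received saline. MIRI mice had 30 min of ischemia by ligation of that artery and 24 h of reperfusion, with saline as the injection. GXNI mice had the same ischemia and reperfusion and received Guanxinning injection, a preparation of the medicinal plants Danshen and Chuanxiong, at 9 mL/kg through the tail vein during ischemia. All mice carried the same wild-type genotype. The labels name cardiomyocytes as the cell type and heart as the tissue, and the libraries held transcripts of several other cell types beside those of cardiomyocytes, as described further on. In such bulk tissue, fewer cells of a type and less RNA per cell cannot be told apart.

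MHC class I molecules show peptides from the cell's own proteins to CD8 T cells and are also read by NK cells. A heavy chain, encoded in C57BL/6 mice by H2-K1 and H2-D1, pairs with the light chain beta-2 microglobulin, encoded by B2m. The immunoproteasome, in which the catalytic subunits encoded by Psmb8, Psmb9 and Psmb10 stand in for those encoded by Psmb5, Psmb6 and Psmb7, cuts proteins into peptides. The transporter made of Tap1 and Tap2 carries the peptides into the endoplasmic reticulum, where tapasin, encoded by Tapbp, helps load them. Nlrc5 is a transactivator of class I genes, and interferons raise the whole set, in part through the IRF factors.

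Of the 10 genes, 7 lay in or beside the major histocompatibility complex on chromosome 17, 2 on chromosome 8 and B2m on chromosome 2 (GRCm38, GENCODE M21). Tap1 occupied chr17:34187553-34197225 on the forward strand and Psmb9 chr17:34181987-34187764 on the reverse strand, so that their ends overlapped and shared 212 bp of exon. Since the strand setting of the counting is not given in the sources used here, reads of that stretch cannot be assigned to one of the pair. Tapbp shared 149 bp of exon with Zbtb22 on the same strand. Longer stretches were shared with genes on the opposite strand: 904 bp of Tapbp with Gm19412, 533 bp of Tap2 with Gm15821 and 498 bp of Psmb8 with Gm20496. Those 3 neighbours had at most 12 counts in any library, and the limit of the strand setting holds for these stretches too. Of all windows of 50 bases in the transcripts of H2-D1, 12.8% also stood in a transcript of another gene, most often H2-Q1, and for H2-K1 the share was 9.63%, most often H2-Q10. Reads of the heavy chain genes may therefore be split among relatives, whereas B2m and Psmb10 shared none of their windows. Tapbp had the highest share of the 10, 23.2%, most often with Gm19412.

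Promoter stretches are shown for the motif matches they hold, and a link of these matches to the levels of the genes was not tested. RefSeq (GRCm38.p6) gave a window of 300 bases, 250 before to 50 after the start, for 8 of the 10 genes, and Tap2 and Nlrc5 were not among them. Searched on both strands were AANNGAAA for IRF factors, TTCNNNGAA for the GAS element of interferon-induced genes, the NF-kappa-B consensus, TGACG for CREB and ATF factors, and CCAAT for NF-Y. Capitals in the 3 sequences mark every match, and the bases run 5′ to 3′ along the named gene, before its RefSeq start. H2-K1 and B2m are shown for 150 bases before the start, and H2-D1 for the 29 bases from its NF-kappa-B match to its IRF match, which GENCODE M21 places in the first exon of a longer H2-D1 transcript.
H2-K1, chr17:34000348-34000497, reverse strand: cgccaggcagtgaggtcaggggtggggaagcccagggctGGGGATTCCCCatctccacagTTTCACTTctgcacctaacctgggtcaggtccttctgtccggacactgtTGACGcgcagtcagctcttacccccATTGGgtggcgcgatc
H2-D1, chr17:35262923-35262951, forward strand: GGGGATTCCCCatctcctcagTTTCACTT
B2m, chr2:122147537-122147686, forward strand: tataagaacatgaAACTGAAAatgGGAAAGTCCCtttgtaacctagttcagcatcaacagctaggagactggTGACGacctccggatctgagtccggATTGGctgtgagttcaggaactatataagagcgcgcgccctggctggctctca

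Both heavy chain promoters carried, in the same order, an NF-kappa-B match, an IRF match on the other strand, TGACG and an inverted CCAAT, and around these matches 135 of 150 aligned bases were identical. B2m carried the same 4 kinds of match, with the IRF match ahead of the NF-kappa-B match. Tap1 and Psmb9 are transcribed in opposite directions from RefSeq starts with 225 bases between them, and those bases held 1 TGACG and 1 CCAAT. Psmb8 had a palindromic GAS match at -97 to -89 from its start, Tapbp held CCAAT only, and the window of Psmb10 held none of these motifs. The IRF and NF-kappa-B motifs were each found in 3 of the 8 windows, those of B2m, H2-K1 and H2-D1. Among all 32851 RefSeq promoter windows of the same length, the share with a match was 23.9% for IRF, 8.46% for NF-kappa-B, 8.30% for GAS, 20.8% for TGACG and 37.4% for CCAAT. A match says only that these letters are present.

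Before the results, 2 libraries need to be named. Total counts ranged from 17119454 to 22811295, so that 3 counts equalled 0.129 to 0.178 CPM (counts scaled to a common library size with TMM factors). Across all genes the sham libraries were most like each other, whereas the library labelled MIRI 2 was most like GXNI 1. MIRI 1 and MIRI 3 were most like the library labelled GXNI 3, and GXNI 3 was most like MIRI 3. GXNI 1, however, was most like sham 1, and GXNI 2 was most like MIRI 1. The fold changes tabulated in the supplement of the study correspond to groups in which MIRI 2 and GXNI 3 have changed places. That grouping, called the published grouping, is given beside the deposited labels. It was added after the values were seen, and values without both libraries are given as well. Heavily expressed cardiomyocyte genes such as Myh6 were present in every library, as were endothelial, fibroblast and macrophage markers.

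In sham hearts the light chain was by far the most abundant of the 10 transcripts per length. B2m had 692 ± 184 CPM per kb of exon (SD, n = 3), followed by H2-D1 at 186 ± 34.0 and H2-K1 at 169 ± 40.0 CPM per kb. Psmb10 and Tapbp came next at 46.6 ± 13.9 and 31.5 ± 8.48 CPM per kb. Tap1, Psmb8, Tap2 and Psmb9 lay between 12.4 and 6.86 CPM per kb, and Nlrc5 was the lowest at 3.55 ± 2.36. In this order the sham ranges of H2-D1 and H2-K1 overlapped, as did those of Psmb10 and Tapbp and those of each neighbouring pair from Tap1 down to Nlrc5.

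The light chain and both heavy chains showed the same picture across libraries. B2m stood at 416, 652 and 718 CPM in sham libraries 1 to 3, at 529, 114 and 448 CPM in MIRI 1 to 3, and at 272, 279 and 483 CPM in GXNI 1 to 3. H2-K1 stood at 368, 523 and 598 CPM in sham, 501, 113 and 441 CPM in MIRI and 233, 213 and 361 CPM in GXNI libraries. H2-D1 stood at 379, 519 and 541 CPM in sham, 565, 153 and 515 CPM in MIRI and 286, 303 and 478 CPM in GXNI libraries. MIRI 1 and MIRI 3 were within or close to the sham range for all 3 genes, MIRI 2 was far below every other library, and GXNI 1 and GXNI 2 lay between MIRI 2 and the others. All GXNI libraries were below all sham libraries for H2-K1, whereas the groups overlapped for B2m and H2-D1. Such separation of GXNI below sham was found for 2 of the 10 genes, H2-K1 and Psmb10, and for 15.1% of the 15207 genes that passed the filter over the 9 libraries, so that count was near the background.

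Among the loading genes, the peptide transporter varied most. Tap1 stood at 23.3, 71.5 and 109 CPM in sham, 44.7, 7.18 and 35.9 CPM in MIRI and 25.5, 27.7 and 69.3 CPM in GXNI libraries. Its partner Tap2 stood at 22.1, 42.4 and 54.9 CPM in sham, 27.4, 17.04 and 24.3 CPM in MIRI and 25.3, 23.4 and 30.4 CPM in GXNI libraries. Tapbp, the tapasin gene, had 85.2, 111 and 146 CPM in sham, 106, 62.5 and 81.6 CPM in MIRI and 90.01, 80.6 and 112 CPM in GXNI libraries. All 3 overlapped between every pair of groups, and sham 1 was as low as the ischemic hearts for Tap1 and Tap2.

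Among the immunoproteasome subunits MIRI 2 was again the lowest library, while the order of the others varied. Psmb8, which replaces the chymotrypsin-like subunit, stood at 22.3, 42.0 and 49.97 CPM in sham, 38.7, 7.30 and 26.9 CPM in MIRI and 18.03, 22.3 and 47.4 CPM in GXNI libraries. Psmb9 stood at 8.65, 28.6 and 38.0 CPM in sham, 13.0, 3.799 and 9.56 CPM in MIRI and 8.64, 8.47 and 15.3 CPM in GXNI libraries. Psmb10 stood at 56.3, 78.1 and 104 CPM in sham, 73.8, 32.2 and 55.1 CPM in MIRI and 36.8, 44.5 and 48.7 CPM in GXNI libraries. GXNI 3 was close to the highest sham library for Psmb8 and below all sham libraries for Psmb10. Nlrc5, the transactivator, had 10.95, 28.5 and 50.9 CPM in sham, 21.6, 1.72 and 11.8 CPM in MIRI and 11.3, 12.9 and 33.3 CPM in GXNI libraries. It had the widest spread of the 10, with the highest library 29.6-fold above the lowest, against 2.34-fold for Tapbp.

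A pair of libraries lay at the bottom of their groups throughout. MIRI 2 had the lowest value of all 9 libraries for 10 of the 10 genes, which was so for 11.4% of those 15207 genes. Sham 1 had the lowest sham value for all 10, against 35.2% of those genes. GXNI 3 was the highest GXNI library for each of the 10. In the plot of levels by library these patterns repeat from panel to panel.

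**Figure D1:**
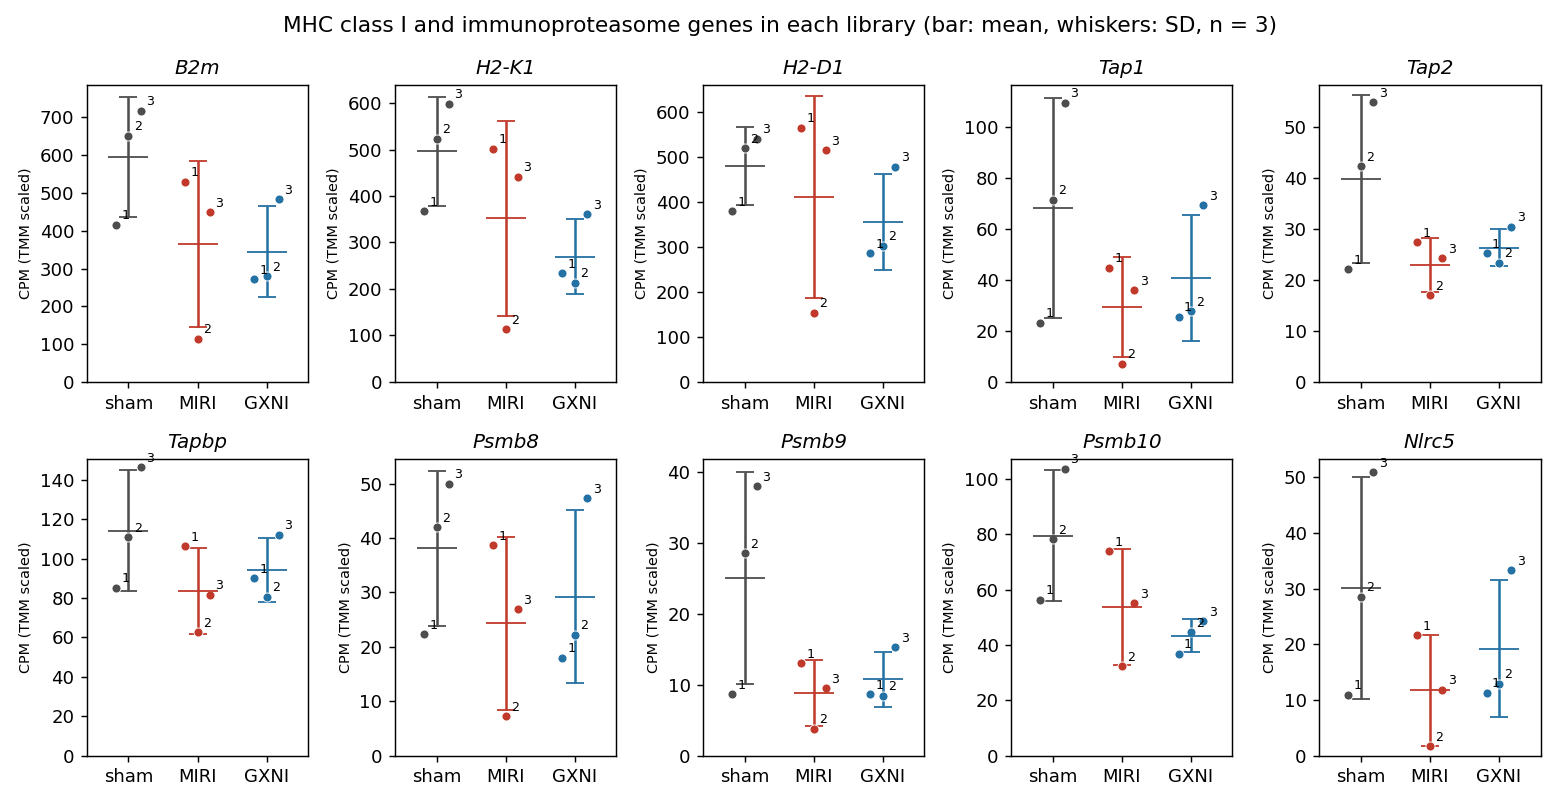
Expression of each of the 10 genes in CPM (y axis, TMM scaled, from 0) in the sham, MIRI and GXNI libraries (x axis). Points are libraries with their replicate number, bars are means and whiskers are SD (n = 3), and MIRI 2 is the lowest point in every panel.

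The first question is whether ischemia and reperfusion changed the pathway. In MIRI against sham all 10 had negative log2 fold changes, from -1.499 for Psmb9 to -0.21 for H2-D1, with a median of -0.67, while the median of all genes tested was -0.00151. The call rule asked for a change of 1.5-fold or more with an unadjusted p no higher than 0.01 in edgeR's quasi-likelihood test, the thresholds of the study. By that rule 0 of the 10 were called higher, beside 6.15% of all 14644 genes tested, and 0 were called lower, beside 2.82%. At an unadjusted p under 0.05 there was 1 gene, Psmb9, with a log2 fold change of -1.499 ± 0.61 (SE, unadjusted p = 0.0439, adjusted p = 0.167, edgeR). With DESeq2 Psmb9 was called lower, as the only gene of the 10, and the share of all genes called by DESeq2 is not given. Without MIRI 2 the median of the 10 moved to -0.29, and H2-D1 was then slightly above sham (0.17 ± 0.16).

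In GXNI against sham all 10 log2 fold changes were again negative, with a median of -0.68 against 0.01 over all genes tested. The comparison uses the same sham libraries as the one before. Called lower was 1 of the 10, Psmb10, beside 1.54% of 14695 genes, and called higher were 0 of the 10, beside 2.67%. Psmb10 fell by 0.87 ± 0.24 on the log2 scale, or 1.82-fold (unadjusted p = 0.00903 and adjusted p = 0.219 in edgeR's quasi-likelihood test). Its adjusted p ranged from 0.00115 to 0.502 over the 15 alternatives, and the lowest value came from DESeq2 under the published grouping. With DESeq2 under the deposited labels the adjusted p of Psmb10 was 0.0448. The call was lost without sham 2 (unadjusted p = 0.0247), sham 3 (0.0299), GXNI 1 (0.0252) or GXNI 2 (0.0285), although the fold change stayed negative in each. H2-K1, which did not reach the threshold, had a log2 fold change of -0.87 ± 0.27 (unadjusted p = 0.0143, edgeR), and B2m had a log2 fold change of -0.78 ± 0.30 (unadjusted p = 0.0375).

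A comparison that does not depend on which ischemic group a library belongs to set the 6 libraries of both groups against the 3 sham libraries. The median log2 fold change of the 10 was -0.70, with 0.01 over all genes tested, and all 10 were negative. Called lower were 0 of the 10, beside 2.85% of 15207 genes, and called higher were 0, beside 5.52%. Psmb9 had the largest difference, -1.36 ± 0.45 (unadjusted p = 0.0139 and adjusted p = 0.107, edgeR), followed by Nlrc5 at -0.96 ± 0.68 and Tap1 at -0.96 ± 0.59. Without sham 1, the lowest sham library, 2 of the 10 were called lower, Psmb9 and Tap2, with the share of all genes not given. The sham hearts themselves differed widely. From lowest to highest sham library it reached 4.71-fold for Tap1, 4.64-fold for Nlrc5 and 4.40-fold for Psmb9.

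The second question is whether GXNI changed the pathway in injured hearts. Under the deposited labels 0 of the 10 were called higher, beside 0% of all 14762 genes, and 0 were called lower, beside 0.0203%, so the counts are those of genes in general and say nothing particular to the 10. Log2 fold changes in GXNI against MIRI ran from -0.38 for H2-K1 to 0.71 for Nlrc5, 4 of them negative, with standard errors from 0.22 to 0.83. Over all genes this comparison gave 3 calls with edgeR, 47 genes at an unadjusted p under 0.05 and 11 calls with DESeq2, none of them among the 10.

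The result was different without the libraries labelled MIRI 2 and GXNI 3, which left 2 libraries in each group. MIRI 2 was the lowest library and GXNI 3 the highest GXNI library for each of the 10 genes. Leaving them out therefore lowers GXNI relative to MIRI by the choice of libraries, and the calls below are no independent evidence. Of the 10 genes 3 were then called lower in GXNI, beside 3.47% of all genes tested: H2-K1, H2-D1 and B2m. H2-K1 fell by 1.07 ± 0.19 on the log2 scale (2.09-fold), H2-D1 by 0.87 ± 0.18 (1.82-fold) and B2m by 0.82 ± 0.19 (1.76-fold). Their adjusted p in edgeR's quasi-likelihood test was 0.188 for each, so these calls did not pass correction over all genes. The other log2 fold changes were negative without passing the test, the smallest being -0.076 ± 0.18 for Tap2 and -0.13 ± 0.20 for Tapbp. Against sham, the same 3 genes and Psmb10 were called lower in GXNI without the 2 libraries, 4 of 10 beside 1.46% of all genes.

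Under the published grouping the chains were called lower in GXNI hearts against MIRI and against sham. In MIRI against sham 0 of the 10 were called higher and 0 lower, beside 19.2% and 16.6% of all genes, and B2m, H2-K1 and H2-D1 had log2 fold changes of -0.29 ± 0.19, -0.19 ± 0.19 and 0.11 ± 0.14. In GXNI against MIRI 3 of the 10 were called lower, beside 10.7%, and 0 higher, beside 8.56%. H2-K1 fell by 1.21 ± 0.27 on the log2 scale, B2m by 1.12 ± 0.31 and H2-D1 by 1.06 ± 0.25, with adjusted p of 0.0222, 0.0369 and 0.0245 in edgeR's quasi-likelihood test. Over the 15 alternatives to the fit under the deposited labels, this grouping among them, the adjusted p of H2-K1 ranged from 0.000121 to 1.0. That of B2m ranged from 0.00156 to 1.0 and that of H2-D1 from 0.000353 to 1.0. The lowest value of each came from this grouping with DESeq2 and the highest from the deposited labels. B2m had 487 ± 40.6 CPM in the MIRI and 222 ± 93.2 CPM in the GXNI hearts of this grouping (SD, n = 3). Some markers of other cells were also called lower in the same comparison, beside that 10.7% of all genes. They were 8 of 11 neutrophil markers tested, 2 of 12 macrophage and monocyte markers (Ccr2 and Cd68) and 2 of 10 endothelial markers (Cdh5 and Emcn). Of 12 T and NK cell markers 3 were tested and 2 called lower, Gzma and Klrd1, with at most 23 counts in any of the 6 libraries. Log2 fold changes were negative for 6 of the 12 macrophage and monocyte markers. Called higher were 2 of 10 cardiomyocyte markers (Pln and Ryr2) and 1 of 8 fibroblast markers (Dpt), beside 8.56%. The part of these cells in the result was not tested.

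The other 7 genes had negative log2 fold changes in that comparison without reaching the threshold. Psmb8 had a log2 fold change of -1.23 ± 0.38, Tap1 of -1.30 ± 0.46 and Nlrc5 of -1.34 ± 0.63 in GXNI against MIRI. In GXNI against sham, B2m, H2-K1, H2-D1, Psmb9 and Psmb10 were called lower, 5 of 10 beside 1.56% of all genes, and 0 were called higher, beside 2.16%. Psmb9 had the largest difference, -1.84 ± 0.54, and the adjusted p of the 5 lay between 0.138 and 0.198 (edgeR). The p-values of this grouping come from groups chosen with the values known. The plot of fold changes sets the 3 ways of grouping side by side.

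**Figure D2:**
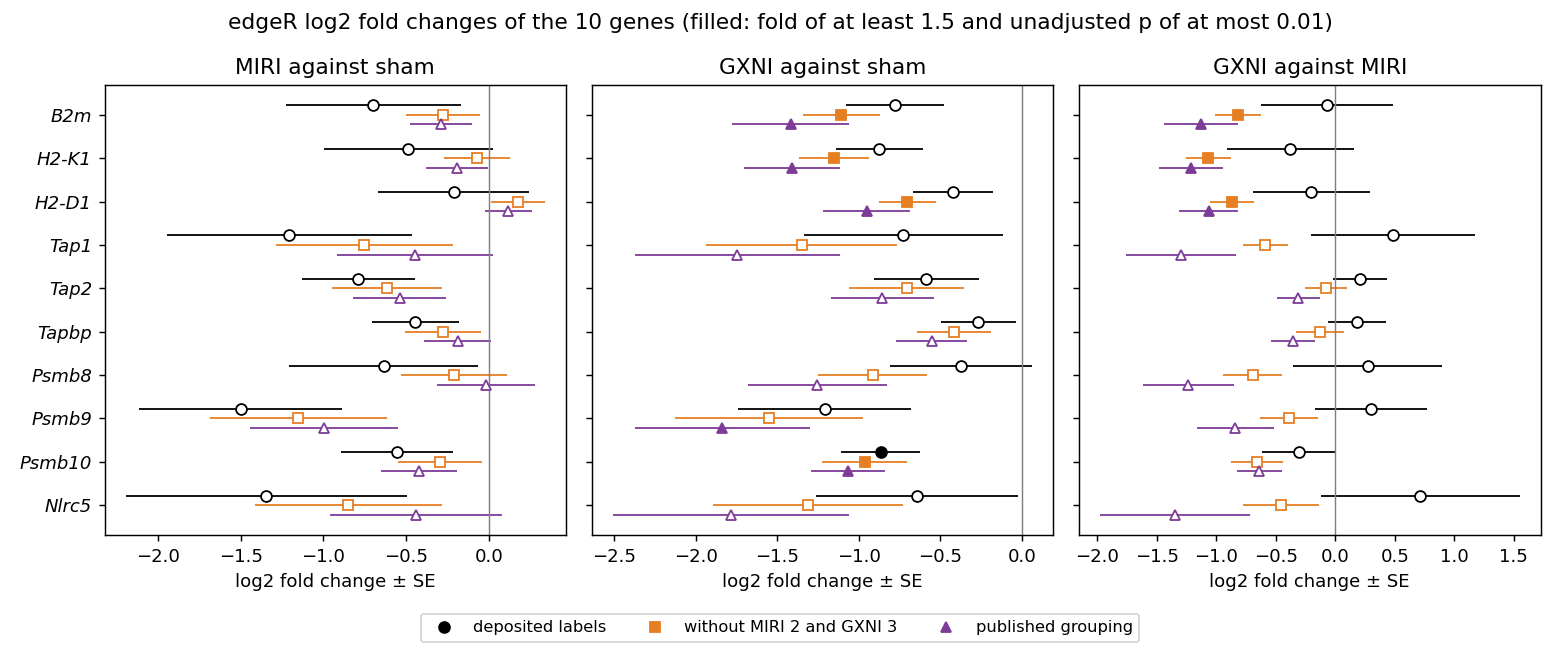
Log2 fold changes ± SE (x axis) of the 10 genes (y axis) in 3 comparisons, under the deposited labels (circles), without MIRI 2 and GXNI 3 (squares) and under the published grouping (triangles). Filled symbols passed a fold change of 1.5 and an unadjusted p of 0.01, as H2-K1, H2-D1 and B2m did in GXNI against MIRI once the 2 libraries were left out or exchanged.

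The constitutive catalytic subunits gave a reference for the immunoproteasome within each library. Psmb5, Psmb6 and Psmb7 were nearly level, with log2 fold changes between -0.04 and 0.16 in the comparisons against sham, and 0 of 3 were called in any comparison under either grouping. Psmb7, for instance, stayed between 102 and 118 CPM in all 9 libraries. Ratios of counts within a library need no scaling. The log2 ratio of Psmb10 to Psmb7 was -0.54 ± 0.45 in sham, -1.11 ± 0.65 in MIRI and -1.35 ± 0.14 in GXNI hearts (SD, n = 3), with all GXNI libraries below all sham libraries (two-sided exact permutation test, p = 0.1, the smallest possible for 3 against 3). Psmb9 to Psmb6 averaged -2.32 ± 1.10, -3.76 ± 0.95 and -3.31 ± 0.53, and Psmb8 to Psmb5 averaged -1.26 ± 0.54, -2.28 ± 1.25 and -1.82 ± 0.72 on the same scale. The groups overlapped for both of these ratios.

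The ratio of the light chain to the 2 heavy chains was much tighter. On the log2 scale B2m to the sum of H2-K1 and H2-D1 was -0.84, -0.68 and -0.67 in sham, -1.01, -1.22 and -1.09 in MIRI and -0.93, -0.89 and -0.80 in GXNI libraries. MIRI libraries were below all others, including MIRI 2, and MIRI differed from sham by -0.38 (two-sided exact permutation test, p = 0.1). GXNI exceeded MIRI by 0.24 (exact permutation p = 0.1). For the 6 ischemic libraries against sham the difference was -0.26 (exact permutation p = 0.0476, where the smallest possible is 0.0238). After Benjamini-Hochberg adjustment over the 16 tests of the 4 ratios the lowest p was 0.267. Under the published grouping the difference between GXNI and MIRI was -0.05, so its sign rests on the placing of the 2 libraries.

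**Figure D3:**
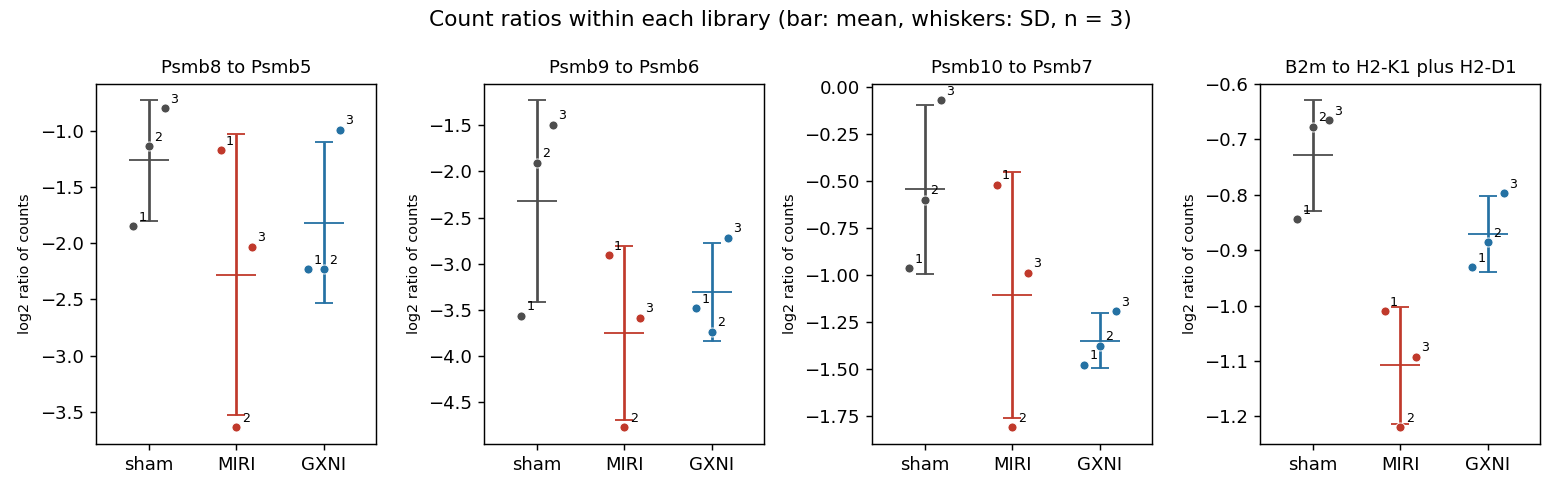
Log2 ratios of counts within each library (y axis) for 3 immunoproteasome subunits over the constitutive subunits they replace and for B2m over the sum of H2-K1 and H2-D1, by group (x axis). Points are libraries with replicate numbers, bars are means and whiskers SD (n = 3), and in the last panel the 3 MIRI libraries lie below all sham and GXNI libraries.

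Of 17 class Ib and other class I-like heavy chain genes 13 were tested, and under the deposited labels 0 were called in MIRI against sham, 0 in GXNI against MIRI and 0 in the 6 ischemic libraries against sham. In GXNI against sham 1 was called lower, beside 1.54% of all genes. It was H2-Q7, which encodes a Qa-2 heavy chain, at -1.34 ± 0.28 (adjusted p = 0.219, edgeR). H2-Q7 stood at 24.003, 47.6 and 36.9 CPM in sham, 37.4, 5.28 and 27.3 CPM in MIRI and 14.0, 11.5 and 17.1 CPM in GXNI libraries. H2-T23, which encodes the Qa-1 molecule read by NK cell receptors, and H2-Q4 had log2 fold changes of -0.71 ± 0.47 and -0.47 ± 0.59 in MIRI against sham. Under the published grouping 5 of the 13 were called in GXNI against MIRI, where 10.7% of all genes were called lower and 8.56% higher. H2-Q10 led the 3 genes called lower in GXNI against MIRI (-2.48 ± 0.62), followed by H2-Q7 and H2-Q4, while Hfe led the 2 called higher (1.18 ± 0.19). In MIRI against sham of that grouping H2-Q10 was called higher (2.97 ± 0.33) and Fcgrt and Hfe lower (-1.28 ± 0.17 and -0.62 ± 0.14). There 19.2% of all genes were called higher and 16.6% lower, so these calls are not read as particular to the list.

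Among the partners of peptide loading and trimming the log2 fold changes had both signs. Of 8 tested, 1 was called higher in GXNI against sham, Pdia3, a disulfide isomerase of the loading complex (0.63 ± 0.17). Of all genes 2.67% were called higher there. In the 6 ischemic libraries against sham 1 was called lower, Tapbpl, a tapasin-like peptide editor (-0.96 ± 0.30, and -1.12 ± 0.39 in MIRI against sham), and the other 2 comparisons gave 0 calls. The share of all genes called lower in the 6 ischemic libraries was 2.85%. Calr, the chaperone calreticulin, had 361 ± 19.9 CPM in sham hearts and a log2 fold change of 0.08 ± 0.18 in MIRI. Erap1, which trims peptides in the endoplasmic reticulum, had -0.50 ± 0.19 in MIRI and -0.44 ± 0.15 in GXNI hearts against sham. With MIRI 2 and GXNI 3 exchanged Erap1 was called lower in GXNI against sham (-0.61 ± 0.12) and Pdia3 and Hspa5 higher in MIRI against sham (0.79 ± 0.15 and 0.72 ± 0.18). The shares of all genes so called were 1.56% and 19.2%. The proteasome activator genes Psme1 and Psme2, whose product opens the proteasome core, had log2 fold changes of -0.42 ± 0.16 and -0.79 ± 0.24 in MIRI against sham, and 0 of 4 activator and assembly genes were called in any comparison under either grouping.

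Among the 19 regulators of class I genes the direction was mixed. Relb, an NF-kappa-B subunit, was the 1 gene called higher in MIRI (1.57 ± 0.41) and in GXNI hearts (1.66 ± 0.41) against sham, and with both groups together (1.61 ± 0.42). Of all genes 6.15%, 2.67% and 5.52% were called higher in these comparisons, in that order. Irf1, an activator of class I genes, had -1.41 ± 0.44 in MIRI and -0.86 ± 0.50 in GXNI hearts against sham, and Irf7 had -0.89 ± 0.95 and -0.68 ± 0.52. Irf2, Irf8, Rfx5 and Ciita, the class II counterpart of Nlrc5, had 0.17 ± 0.18, 0.70 ± 0.42, 0.06 ± 0.19 and -0.58 ± 0.42 in GXNI against sham, and in GXNI against MIRI 0 of the 19 were called.

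In the published grouping 4 of the 19 regulators, Relb, Irf8, Rela and Nfkb1, were called higher in MIRI against sham, beside 19.2% of all genes. The same 4 were called lower in GXNI against MIRI, beside 10.7%. Relb led the first (2.07 ± 0.19) and Irf8 the second (-1.32 ± 0.31). These counts are not read as particular to the regulators. Irf1 was called lower in GXNI against sham (-1.53 ± 0.43), where 1.56% of all genes were called lower. Ifng, the ligand that induces class I genes most widely, had 0 counts in all 9 libraries, which allows up to 0.129 to 0.178 CPM by counting error only. Of the 9 interferon ligands and receptors 7 were tested, with 0 called in any comparison under the deposited labels. In the published grouping 2 of them, the feedback inhibitor Socs1 and the kinase Jak2, were called higher in MIRI against sham (1.80 ± 0.52 and 1.28 ± 0.21) and lower in GXNI against MIRI (-2.50 ± 0.41 and -1.15 ± 0.24). The shares of all genes were again 19.2% and 10.7%.

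**Figure D4:**
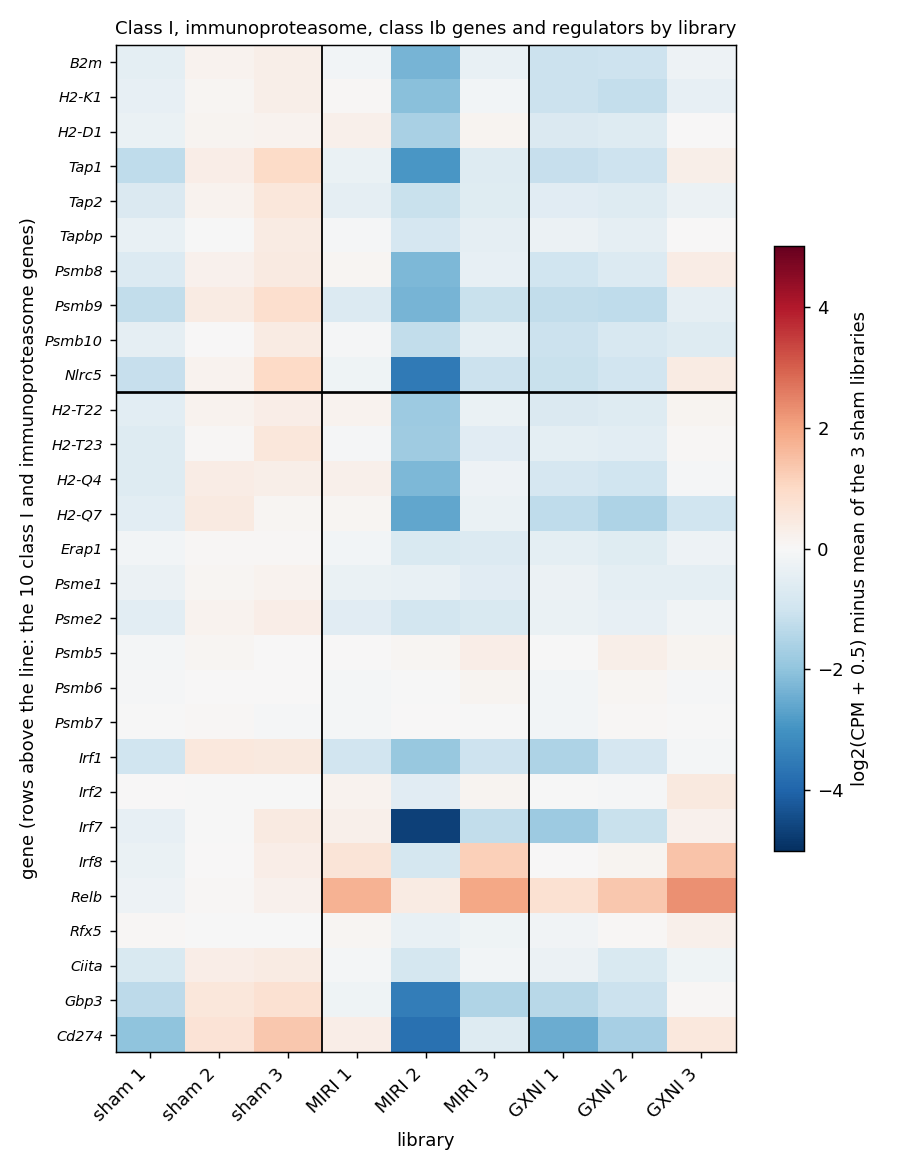
Log2(CPM + 0.5) minus the mean of the 3 sham libraries (color) for the 10 genes (rows above the line) and for named pathway genes and regulators (rows below it) in the 9 libraries (columns). MIRI 2 is the bluest column, and Psmb5, Psmb6 and Psmb7 stay near 0. Relb is above its sham mean of 6.62 CPM in the ischemic hearts, but only faintly in MIRI 2 (8.79 CPM) and GXNI 1 (11.4 CPM).

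The 10 genes moved together across the 9 libraries. The Pearson correlation of log2 CPM over the 45 pairs of genes ranged from 0.703 for H2-D1 with Tap2 to 0.986 for Tap2 with Psmb9, with a median of 0.891. Without MIRI 2 and sham 3, the libraries farthest from the median, the range was 0.498 to 0.981 and the median 0.805. These are descriptions over libraries that share depth, group and cell make-up. Among 15197 other genes, those whose log2 CPM was most like the mean of the 10 were H2-T22 (r = 0.975), H2-T23 (0.972), Gbp3 (0.968), H2-Q4 (0.964) and Cd274 (0.962). H2-T22, H2-T23 and H2-Q4 encode class Ib chains, Gbp3 is an interferon-induced GTPase and Cd274 encodes the ligand PD-L1. Without the 2 farthest libraries these r were 0.974, 0.896, 0.906, 0.963 and 0.953. Irf7 ranked 25 and Irf1 55 by the same measure, whereas Psmb5, Psmb6 and Psmb7 had r between -0.10 and 0.01.

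Markers of other cells differed between the same libraries. The 12 T and NK cell markers summed to 4.78 to 9.60 CPM in sham, 0.712 to 6.002 CPM in MIRI and 2.02 to 4.76 CPM in GXNI libraries, and MIRI 2 was lowest here too. Of these 12 markers 8 had 0 counts in at least 1 library, among them Cd3e, Cd3d, Cd8b1, Ncr1 and Gzma. The log2 sum had r = 0.923 with the mean of the 10 genes over the 9 libraries, though no marker of the 12 had more than 43 counts in a library. Under the deposited labels Nkg7 was called lower in both groups against sham, and Gzma also in GXNI. Of all genes 2.82% were called lower in MIRI and 1.54% in GXNI against sham. The 12 neutrophil markers summed to 34.6 to 68.9 CPM in sham libraries, to 827 and 767 CPM in MIRI 1 and MIRI 3 and 820 CPM in GXNI 3, to 31.9 CPM in MIRI 2, and to 59.1 CPM in GXNI 1 and 259 CPM in GXNI 2, with r = 0.232. Sums of 12 macrophage markers ran from 399 to 728 CPM, of 10 endothelial markers from 1225 to 1817 CPM, of 8 fibroblast markers from 1056 to 2537 CPM and of 10 cardiomyocyte markers from 32315 to 51648 CPM, with r of 0.256, 0.631, -0.103 and -0.152. The part of these cells in the values of the 10 genes was not tested.

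**Figure D5:**
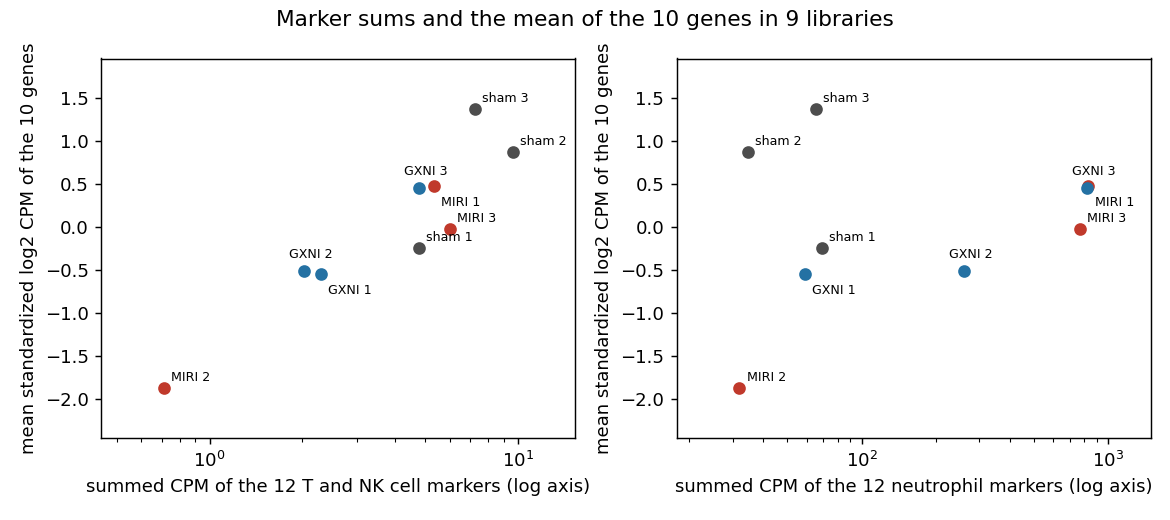
Mean standardized log2 CPM of the 10 genes (y axis) against the summed CPM of 12 T and NK cell markers (left) and 12 neutrophil markers (right) on log x axes, with 1 point per library. MIRI 2 is lowest in both directions on the left, while the libraries with sums of 767 to 827 CPM on the right lie in the middle of the y range.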

How the data were processed

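Per the labels and the methods of the study, total RNA of heart tissue was sequenced, adapter, poly-N and low-quality reads were removed by the authors, and the rest were aligned with HISAT2 to mm10 and counted per gene with featureCounts of Subread. Versions, the annotation release and the strand setting are not given in the sources used here. The deposited values are whole-number counts, not normalized, and 0 columns of other samples were present. Of 54532 identifiers 54409 were matched to GENCODE M21 (GRCm38) for symbols and coordinates.

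Each comparison was fitted on its own libraries with edgeR 4.0.16 in R 4.3.3 (TMM, the default filter on low counts, quasi-likelihood F test, no covariates) over all genes tested. All 10 genes passed the filter in every comparison. The standard error is the size of the log2 fold change divided by the square root of F. Ratios used log2 with 0.5 added to each count and two-sided exact permutation tests (SciPy 1.17.1). Levels are CPM with TMM factors over 9 libraries, and correlations used log2(CPM + 0.5). The study gives 3 separate animals for each group, and the replicate numbers come from the labels. No 2 libraries of the same group agreed within sampling noise, and pairs across groups were not compared in this way.

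The 10 genes, the gene lists and the tests were chosen with earlier results of these data known. Named are the 10 genes, 17 pathway genes whatever their values (Irf1, Irf2, Irf7, Irf8, Rfx5, Ciita, Ifng, Psme1, Psme2, Psmb5, Psmb6, Psmb7, H2-T23, H2-Q4, H2-Q7, Erap1 and Calr), the called gene with the largest change in each direction of each list, and the 5 genes most like the 10. Other genes were named after their values were seen. The results of 1 further gene of the list of regulators are not reported here. Alternatives were DESeq2 1.42.0, RLE, no filter, all 9 libraries in 1 fit, mitochondrial genes left out, a replicate block, an adjusted p of at most 0.05, each library left out, 5 in place of 0.5 in the ratios, and MIRI 2 with GXNI 3 left out. Chosen later, with the values known, was the published grouping: among the 1680 possible sets of 3 libraries against 3, it came closest to the fold changes in the part of the study's supplement at hand. On simulated counts for MIRI against sham with 200 genes changed by 2 log2 units, edgeR called 200 of the 200 and 0.912% of unchanged genes. The simulation used the same dispersion for every gene and changed only genes above a minimum level. It therefore cannot tell how often changes of the 10 genes, with their own spread, would be called.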

Additional observations from a re-analysis of the deposited data

How the results depend on the processing

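Limits first: depth was alike in all libraries and no gene of the 10 was near the floor, while 3 libraries a group and the wide spread of sham and MIRI libraries set the precision. Counts of the 10 genes called lower were as follows. Where no share of all genes stands beside a count, that share is not given, and the count is not read as particular to the 10. In MIRI against sham 1 was called with DESeq2 and 1 with no filter, and leaving out 1 library gave 0 to 2, with 2 only without sham 1. In GXNI against MIRI the count was 3 without MIRI 2 and GXNI 3, beside 3.47% of all genes. The published grouping gave 3, beside 10.7%, and 6 with DESeq2. In GXNI against sham the count was 0 at an adjusted p of at most 0.05 and 0 with all 9 libraries in 1 fit. DESeq2 gave 2 and no filter gave 2. Without MIRI 2 and GXNI 3 the count was 4, beside 1.46% of all genes. The published grouping gave 5, beside 1.56%, and 7 with DESeq2. Leaving out 1 library gave 0 to 4, with 4 without sham 1 or GXNI 3 and 0 without any of the others. For both ischemic groups together the count was 1 with DESeq2 and 1 with no filter. Leaving out 1 library gave 0 to 2 there, with 2 without sham 1 and 1 without MIRI 1 or GXNI 3. Called higher were 0 of the 10 under every alternative run.

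With the replicate number as a replicate block 3 genes were called lower in GXNI against sham, B2m, H2-K1 and Psmb10. The share of all genes is not given for that fit. In GXNI against MIRI B2m reversed to 0.15 with the block. Correlations of deviations between same-numbered libraries ran from -0.49 to 0.77. The deviations were taken from means of 3 libraries, so these values cannot decide whether the numbers pair the libraries.

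Reversals of the log2 fold change were mostly in GXNI against MIRI. H2-D1 in MIRI against sham became 0.17 without MIRI 2, also with GXNI 3 left out (0.17), 0.11 under the published grouping and 0.12 there with DESeq2. In GXNI against MIRI, B2m became 0.31, 0.099, 0.072 and 0.059 without MIRI 1, MIRI 3, GXNI 1 and GXNI 2, and H2-D1 0.10 without MIRI 1. Without MIRI 2, Psmb8 and Psmb9 became -0.16 and -0.057. Without GXNI 3, Tap1, Psmb8 and Psmb9 became -0.13, -0.27 and -0.036. Without both, Tap1, Tap2, Tapbp, Psmb8, Psmb9 and Nlrc5 became -0.59, -0.076, -0.13, -0.69, -0.39 and -0.46. Under the published grouping they became -1.30, -0.31, -0.35, -1.23, -0.84 and -1.34, and there with DESeq2 -1.32, -0.32, -0.37, -1.25, -0.86 and -1.37. Log2 ratios reversed in the same comparison. Psmb8 to Psmb5 became -0.63 without both libraries and -1.31 under the published grouping, Psmb9 to Psmb6 -0.36 and -0.93, and B2m to the heavy chains -0.045 under the published grouping. On leaving out 1 library Psmb8 to Psmb5 ranged from -0.22 to 1.02, Psmb9 to Psmb6 from -0.064 to 0.87 and Psmb10 to Psmb7 from -0.59 to 0.050. Over the fits that left out 1 library, H2-D1 in MIRI against sham ranged from -0.51 to 0.17, and in GXNI against MIRI B2m ranged from -0.49 to 0.31, H2-D1 from -0.59 to 0.10, Tap1 from -0.13 to 0.93, Psmb8 from -0.27 to 0.78 and Psmb9 from -0.057 to 0.70. The cause was not tested.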
